A study of Mus musculus with 2 samples.

Results

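The IRF4 binding sites of mouse chromosome 16 were taken as every peak on that chromosome in the optimal peak list of an IRF4 chromatin immunoprecipitation and sequencing (ChIP-seq) experiment. They number 2241 of 44058 peaks in the list (5.09%). The optimal list holds peaks that passed a threshold of the irreproducible discovery rate (IDR), a score of how alike peaks rank between lists. Not every member was matched in both replicates. The measured reads chose the members, so their density and signal are given as descriptions without a test. The experiment was made in CH12.LX, an immortalized B-cell lymphoma line from a female mouse of strain B10.H-2aH-4bp/Wts. It has 1 group, untreated as far as the labels say, of 2 biological replicates precipitated with an IRF4 antibody. Both replicates derive from 1 donor animal, and the labels do not say whether they were separate cultures. No source used here states read numbers. Depth per replicate is thus unknown, and the 95% Wilson intervals cover counting error over peaks alone.

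IRF4, an interferon regulatory factor found mainly in lymphocytes, guides B-cell activation, the germinal centre reaction and plasma cell differentiation. Alone it binds DNA weakly, and it occupies composite elements with a partner: the ETS factors PU.1 or Spi-B on ETS-IRF elements, and BATF with JUN proteins on AP-1-IRF elements. At high concentration it also binds tandem IRF half-sites, the interferon-stimulated response element. Mouse chromosome 16 carries the immunoglobulin lambda light chain locus, whose enhancers carry an element bound by PU.1 together with IRF4, and the genes of the interferon receptor cluster, of the costimulatory molecules CD80 and CD86, and of Ciita and Socs1.

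The sequences below show what lay under some of the strongest sites. Each is the 61 bases around a summit of the separate mm9 list, on the plus strand of the NCBIM37 (mm9) genome, because the reference sequence in use was of that build. Capitals mark an ETS-IRF element (GGAANNGAAA or its reverse complement) or an AP-1 site (TGANTCA with C or G in the middle). Names give the host gene, or for the site between genes the gene of the nearest start. The windows were picked from the 20 strongest mm9 sites of the chromosome after their motifs had been seen, to show each kind and a site without one.
Zbtb20, none of the motifs (chr16:43383463-43383523): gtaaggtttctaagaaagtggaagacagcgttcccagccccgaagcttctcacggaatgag
Snx29, ETS-IRF (chr16:11386036-11386096): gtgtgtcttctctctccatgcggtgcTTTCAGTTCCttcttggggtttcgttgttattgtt
Heg1, ETS-IRF (chr16:33745718-33745778): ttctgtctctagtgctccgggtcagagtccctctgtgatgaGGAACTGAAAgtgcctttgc
Filip1l, ETS-IRF (chr16:57550365-57550425): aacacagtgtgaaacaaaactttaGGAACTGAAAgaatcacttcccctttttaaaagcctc
Donson, ETS-IRF (chr16:91685922-91685982): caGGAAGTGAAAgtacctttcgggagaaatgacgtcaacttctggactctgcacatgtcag
Igl distal, ETS-IRF (chr16:19179475-19179535): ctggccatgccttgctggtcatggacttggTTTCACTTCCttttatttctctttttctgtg
Igl proximal, ETS-IRF (chr16:19027363-19027423): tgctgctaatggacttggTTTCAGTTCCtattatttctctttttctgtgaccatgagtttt
near Gpr15, AP-1 (chr16:58697071-58697131): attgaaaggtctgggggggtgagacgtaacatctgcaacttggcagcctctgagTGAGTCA
Hcls1, AP-1 (chr16:36941404-36941464): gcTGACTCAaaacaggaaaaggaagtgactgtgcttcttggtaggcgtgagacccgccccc
The 2 immunoglobulin lambda (Igl) windows were near copies of each other. Aligned on the element, they shared 45 of 49 bases (91.8%), and 1 of the 4 mismatches lay inside the element, which reads TTTCACTTCC at the distal site and TTTCAGTTCC at the proximal one. The windows in Snx29, Heg1 and Filip1l carried the same element letters as the proximal Igl site, on either strand. The window in Donson held GGAAGTGAAA, the reverse complement of the distal Igl element. The site between genes near Gpr15 and the one in Hcls1 carried an AP-1 site and no ETS-IRF element in 61 bases. Within 50 bp of the Gpr15 summit there was also a match to the AP-1-IRF element with a gap of 4 bases, which contains an AP-1 site, so this site does not have AP-1 alone. The strongest mm9 site of the chromosome, in Zbtb20, matched none of the 11 motifs searched, also within 50 bp of its summit. Among the 20 strongest mm9 sites, 8 had an ETS-IRF element within 50 bp, 5 an AP-1 site, and 11 at least 1 of the 4 IRF elements searched.

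Peaks were dense on chromosome 16, and so was the background. The chromosome carried 22.6 optimal peaks per Mb, against 12.7 (chromosome 14) to 38.1 (chromosome 11) on the other 18 autosomes, with a median of 16. It ranked behind chromosome 11 alone. In each replicate by itself, taking as many of its strongest peaks as the optimal list holds, the density was 23.3 per Mb in replicate 1 and 22.8 in replicate 2, 1.47 and 1.42 times the median of the other autosomes. The pooled relaxed list, which was the input for IDR and reaches far into the background, gave 177 peaks per Mb against a median of 110, 1.61 times as many. Relaxed peaks with no optimal summit within 1 kb, taken as the background, stood at 138 per Mb against 69.3 to 192 with a median of 83.1, 1.66 times as many. Their median signal was 8.95, against 8.79 to 9.11. Per 1000 relaxed peaks, chromosome 16 had 128 optimal peaks, against 125 (chromosome 3) to 165 (chromosome 7) with a median of 149, the lowest but 1 of the 19 autosomes. The raised density was thus seen in peaks inside and outside the optimal list. It was also seen where no optimal summit fell: in the 18 such bins of 1 Mb, the median was 16 relaxed peaks, against 3 to 21.0 (chromosome 11) on the other autosomes with a median of 4. Chromosome copies per cell and input reads were not measured here, and the part of the background in the peak density was not tested.

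**Figure D1:**
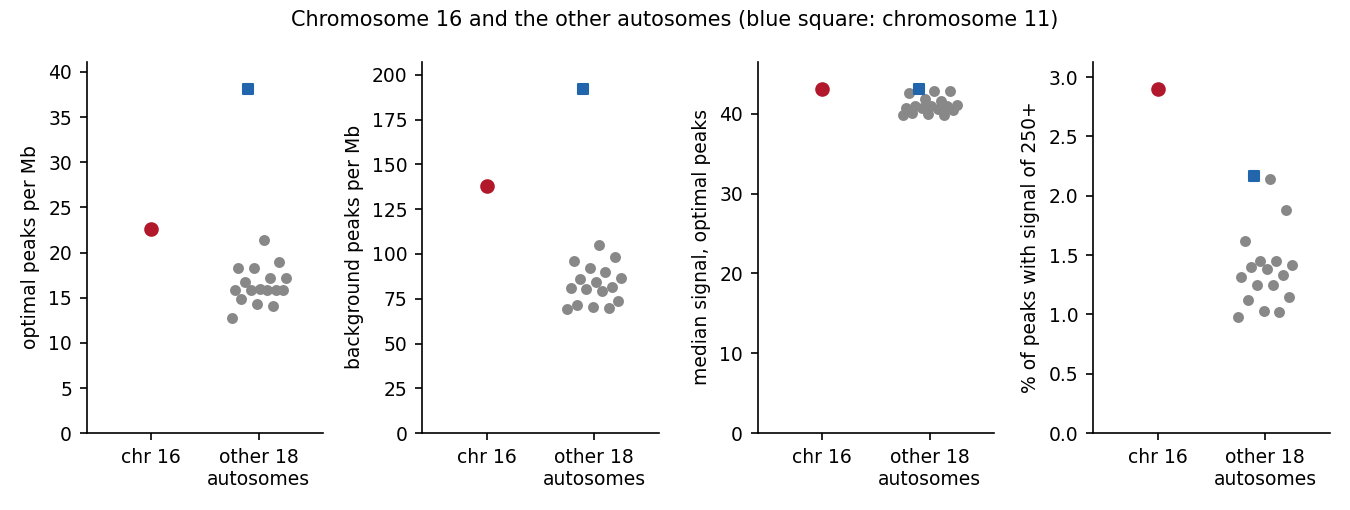
Each panel has 1 point per autosome, chromosome 16 in red at left and the other 18 at right with chromosome 11 as a blue square. From left the vertical axes give optimal peaks per Mb, background peaks per Mb (relaxed peaks with no optimal summit within 1 kb), the median signal of optimal peaks and the percent of optimal peaks with a signal of at least 250; chromosome 16 lies at 22.6, 138, 43.1 and 2.90.

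Typical peaks of chromosome 16 were slightly stronger than on most autosomes, and the very strongest were common there. The signal value, given by the authors' peak caller on a scale that no source states, ran between 7.01 and 469.7 on the chromosome. Its quartiles were 30.3, 43.1 and 70.0, against 28.2 to 30.2, 39.8 to 43.1 and 61.7 to 70.3 on the other autosomes. Chromosome 16 ranked 1 of 19 for the lower quartile and the median, and 2 for the upper quartile. A signal of at least 100 was reached by 332 peaks, 14.8% of the chromosome's peaks, against 10.6% to 14.3% elsewhere. At least 250 was reached by 65 peaks, 2.90%, against 0.982% (chromosome 19) to 2.17% (chromosome 11) with a median of 1.35%. Of the 10 strongest peaks in the whole optimal list 4 lay on chromosome 16, of the 30 strongest 9, and of the 100 strongest 17 (10.9 to 25.5%). Of the 668 strongest it held 9.73%, and of the 5000 strongest 6.02%. Each replicate's own ranking gave a like share of its 100 strongest peaks, 19 in replicate 1 and 16 in replicate 2, and the mm9 list gave 20. Per Mb, chromosome 16 held more of the 100 strongest than any other autosome in all 4 lists, with chromosome 11 next. Among the 668 and the 5000 strongest of the optimal list chromosome 11 held more per Mb, 0.828 against 0.657 and 4.66 against 3.04. These lists share reads, so they do not count as separate evidence.

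Most members were found in both replicates. A summit of each replicate lay within 100 bp for 1879 of the 2241 peaks, 83.8%, against 85.4% of all optimal peaks. The same interval stood in the stricter conservative list for 1660 (74.1%), against 72.3% of all optimal peaks. Both shares were near those of the whole list. Both went with signal, which entered the IDR itself: the conservative share was 27.5% in the lowest quartile of signal and 99.8% in the highest. Of the 332 peaks with a signal of at least 100, 331 were matched in both replicates, and replicate 2 had the higher value at 315 of them. The median log2 ratio of replicate 2 to replicate 1 was 0.44 over these peaks, with an SD of 0.32. The weakest members had pooled signals of 7.01, 7.03 and 7.17 and ranked 289828, 288575 and 278662 in the pooled list. The strongest pooled peaks of the chromosome outside the optimal list had signals of 74.3, 71.6 and 64.6 and ranked 9177, 9748 and 11455. Most of these are second summits beside a member: the 3 weakest members lay 201 to 264 bp from a stronger member that they overlap, and the first 2 of the peaks outside lay 199 and 200 bp from members with signals of 255 and 91.1. The third lay 2906 bp from the nearest member.

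Along the chromosome the peaks fell into a broad proximal block, a long sparse stretch and a short distal block. Between 3 and 60 Mb lay 1687 peaks, 29.6 per Mb, with 8.46 protein-coding gene starts per Mb. Between 60 and 84 Mb lay 58 peaks, 2.42 per Mb, with 1.29 gene starts per Mb, and 14 of its 24 bins held no optimal summit. The distal stretch between 84 and 99 Mb held 496 peaks, 33.1 per Mb, with 9.93 gene starts per Mb. These limits were set after the counts had been seen. Relaxed peaks followed the same course, with 226, 39.0 and 244 per Mb. The median signal of the optimal peaks barely moved with it, at 42.7, 41.9 and 45.2. Of the 65 peaks with a signal of at least 250, 50 lay in the proximal block, 15 in the distal block and 0 in the sparse stretch.

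**Figure D2:**
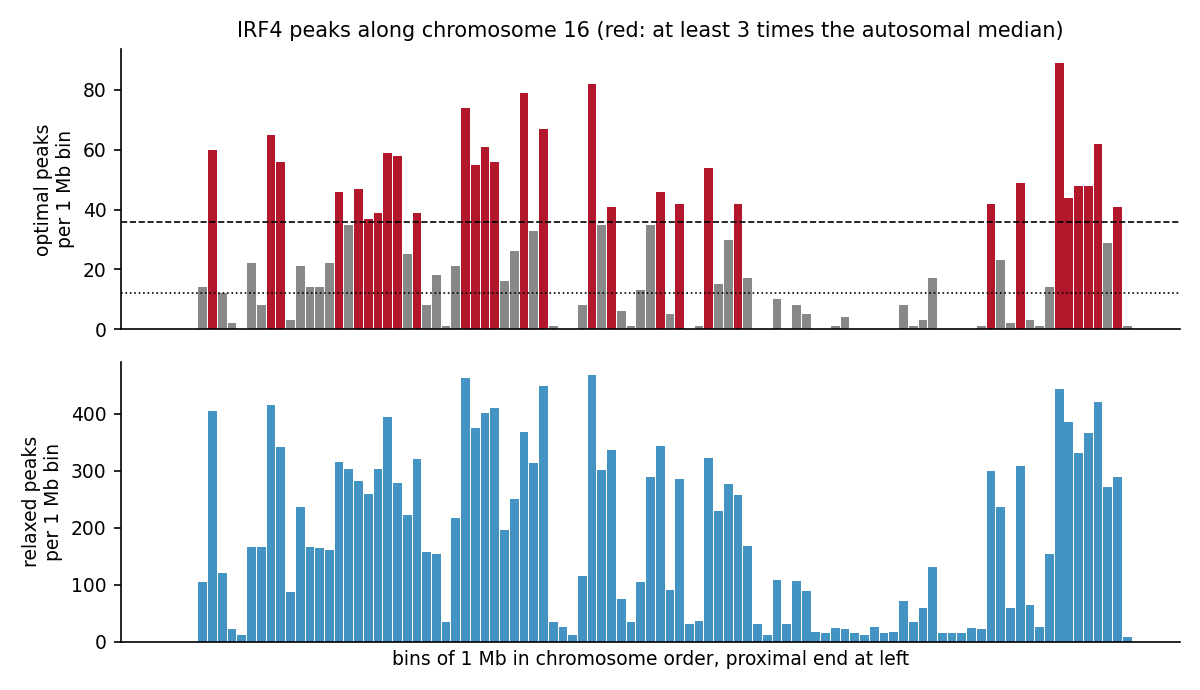
The upper panel plots optimal peaks and the lower panel relaxed peaks of both replicates pooled, per bin of 1 Mb in order along chromosome 16. The dotted line marks the median of 12 over all autosomal bins and the dashed line 36, which is 3 times that; red bars reach it, and the sparse stretch shows in both panels.

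A bin of 1 Mb was called dense when it held at least 3 times the median of 12 summits over the 2469 autosomal bins, that is 36. Chromosome 16 had 30 dense bins of 99 (30.3%), against 16.7% of all autosomal bins. The dense bins held 1628 peaks, 72.6% of the optimal peaks of the chromosome, with 57.3% of its background peaks and 52.6% of its protein-coding gene starts. Dense bins adjoined at 19 to 24 Mb (240 peaks), 30 to 34 Mb (246), 91 to 96 Mb (291) and 10 to 12 Mb (121), and the other 14 stood alone. The dense bins were also dense in background as defined above, with 176 to 332 such peaks each, against 12 to 32 in the 18 bins with relaxed but no optimal peaks. Per 1000 relaxed peaks, the dense bins held 114 to 215 optimal peaks with a median of 148, against a median of 125 over autosomal bins. No bin of the chromosome reached 3 times that median. Whole autosomes had at most 165, so this bar could hardly be met, and nothing is concluded from it. Over the 96 bins with relaxed peaks, the optimal count had a Spearman correlation of 0.949 with the count of background peaks and of 0.736 with the count of gene starts; bins share reads and mappability, so these are descriptions. Replicates 1 and 2 had a correlation of 0.985 over the same bins. Signal differed little between peaks of dense bins, with a median of 44.0, and peaks of other bins, with a median of 41.7. The promoter share was 14.1% in dense bins and 19.9% in the others.

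The densest bin began at 91 Mb and held 89 optimal peaks, 83 among the strongest of replicate 1 and 86 among those of replicate 2. It contains the interferon receptor cluster: Ifnar2, the gene of a chain of the type I interferon receptor, had 8 summits within 10 kb, and Il10rb, the gene of a shared chain of the interleukin 10 and lambda interferon receptors, had 11. Itsn1, the gene of the endocytic scaffold intersectin, had 21 summits and Cryzl1 6. The bin at 43 Mb followed with 82 peaks, and 55 of them lay in or near Zbtb20, the gene of a zinc finger repressor acting in B cells and plasma cells. Its other leading genes were Tigit, the gene of an inhibitory receptor of T and NK cells, with 9, Ccdc191 with 4 and Qtrt2 with 3. At 36 Mb there were 79 peaks, of which 32 were counted to Cd86, the gene of a ligand that costimulates T cells, 13 to Ildr1, 10 to Golgb1 and 8 to Casr. At 30 Mb the 74 peaks were spread, with 8 at Fam43a, 6 at Tmem44, and 5 each at Hes1, the gene of a Notch-induced repressor, and Xxylt1. At 38 Mb there were 67 peaks, 14 at Pla1a, the gene of a phosphatidylserine phospholipase, 11 at Popdc2, 9 at Arhgap31 and 8 at Adprh. Genes within 10 kb of each other share summits in these counts.

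Over whole genes with 10 kb on either side, Zbtb20 had the most summits, 59, of which 12 had a signal of at least 100. It spans 759 kb, so this was 7.58 per 100 kb. St6gal1, the gene of the sialyltransferase that makes the CD22 ligand, had 35 (22.5 per 100 kb), 9 of them at 100 or more. Cd86 had 32, with the highest rate of these genes at 27.3 per 100 kb, but 2 of them reached 100. Dgkg, the gene of a diacylglycerol kinase, had 25, Alcam, the gene of an adhesion molecule, 24, Itsn1 and Snx29 21 each, and Runx1, the gene of a blood cell transcription factor, 20. Of the 679 protein-coding genes of the chromosome, 43 had 10 or more summits and 199 had none. Neighbouring summits often lay close: the median distance was 7824 bp, against 6186 bp (chromosome 11) to 14952 bp (chromosome 18) on the other autosomes. Of the 2240 neighbouring pairs, 19.5% were at most 1 kb apart and 42.9% at most 5 kb.

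The longest stretch without an optimal summit, 5.82 Mb between chr16:69947228 and 75766986 (mm10), contains Robo2 and Robo1, the genes of axon guidance receptors, and Gbe1, the gene of the glycogen branching enzyme. It held 112 relaxed peaks, 19.2 per Mb, of which the strongest had a signal of 15.1. The next, 5.34 Mb between 78637649 and 83980951, contains Ncam2, the gene of a neural adhesion molecule, Tmprss15 and Chodl, and held 113 relaxed peaks with a highest signal of 17.2. Another of 2.87 Mb between 59880279 and 62746061 contains no whole protein-coding gene and 1 gene start, that of Epha6, the gene of an ephrin receptor.

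Few of the 20 strongest peaks were near a protein-coding gene start: 16 were inside a protein-coding gene or the Igl locus, 0 were within 1 kb of a start, and 6 were over 100 kb from the nearest one. Of all peaks of the chromosome, 15.7% lay within 1 kb of a start and 18.6% over 100 kb from any. Inside protein-coding genes, here without the Igl locus, lay 56.1%. The Igl sites are among the 6 distant peaks, at 107313 bp from the start of Olfr164 and 150549 bp from that of Hira. No start in use lay inside the Igl locus. With the GENCODE starts of mm9, the Igl summits of the mm9 list lay 20939 bp from Iglc2 and 932 bp from Gm10088. All 20 stood in the conservative list. The strongest (chr16:43383164-43383540, mm10) lay in Zbtb20 with a pooled value of 469.7, and had 214.9 in replicate 1 and 251.4 in replicate 2. A further peak in Zbtb20 (chr16:43493762-43493948) had 165.6 and 189.6. The peak in Vps8, the gene of a vesicle tethering subunit (chr16:21630622-21630892, pooled 456.5), had 220.5 in replicate 1 and 238.8 in replicate 2. Replicate 2 gave the higher value at 17 of the 20 peaks, and the replicates were closest at Cd200 and at the weaker Igl site.

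A pair of very strong sites lay between genes, 113689 and 88748 bp from the start of Mrpl39, the gene of a mitochondrial ribosomal protein. The first (chr16:84621404-84621704, pooled 446.7) had 203.8 in replicate 1 and 239.7 in replicate 2, and the second (chr16:84646381-84646612, pooled 374.4) had 170.0 and 203.3. The peak in Snx29, the gene of a sorting nexin, had 220.6 in replicate 1 and 217.1 in replicate 2, and was the strongest of the 3 with the higher value in replicate 1. Cd200, the gene of an immunoregulatory surface glycoprotein, had a peak with 203.0 and 202.3. Other sites of this class lay in Ostn (413.7 pooled), near Gpr15, the gene of a lymphocyte homing receptor (412.8), in St6gal1 (401.8), in Urb1 (397.5), in Heg1 (396.4), in 4930562C15Rik (385.6), where Cmss1 and Filip1l overlap (375.6), and near Tprg (346.4).

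**Figure D3:**
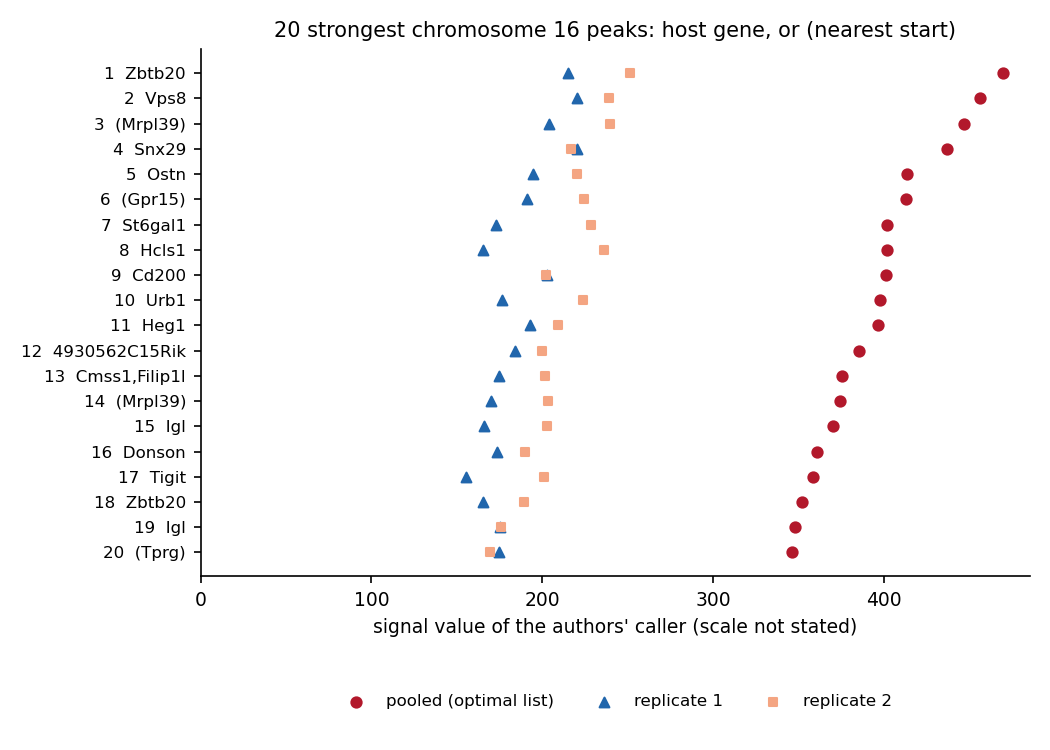
The 20 strongest optimal peaks of chromosome 16, strongest at the top, are labelled by host gene or, in brackets, by the gene of the nearest start. The horizontal axis gives the caller's signal, with circles for the pooled value, triangles for replicate 1 and squares for replicate 2; pooled values run between 346.4 and 469.7, and all replicate values lie below them.

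The immunoglobulin lambda locus held 23 optimal summits in 234 kb, 4 of them with a signal of at least 100. The stronger of the pair whose sequences are printed above (chr16:19179285-19179511, mm10) had a pooled signal of 370.5, with 166.2 in replicate 1 and 202.6 in replicate 2. The other (chr16:19027186-19027394) had 347.7, with 175.4 and 175.6. The next in the locus had 183, so the pair of near copies stood far above the rest. How the authors treated reads that match both copies is not stated in any source used here. The genes of the surrogate light chain, Vpreb1 and Igll1, which pre-B cells use, had as their strongest summit within 10 kb a peak of 119, with 30.7 in replicate 1 and 89.3 in replicate 2. It lay outside both genes, inside Top3b and 21 bp from the start of that gene.

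Whether chromosome 16 peaks lay at promoters as often as those of other autosomes was tested with the chromosome as the unit, since position against genes did not choose the members. Within 1 kb of a protein-coding gene start lay 352 summits, 15.7% (14.3 to 17.3), against a mean of 17.3% ± 3.19 on the other autosomes (SD, n = 18). The difference of -1.57 percentage points lay within the spread between chromosomes (two-sided exact permutation test over 19 assignments, p = 0.737). The smallest p that 19 chromosomes allow is 0.0526, so the test could not have passed 0.05. A further 16% lay 1 to 10 kb from a start, 49.7% lay 10 to 100 kb and 18.6% farther, and the median distance was 26531 bp. Protein-coding genes contained 56.1% of the summits (54.1 to 58.2), against 53.4% of the background peaks; these genes cover 41.3% of the span. The promoter share was 9.29% (52 of 560) in the highest quartile of signal, 18.5% (104 of 561) in the lowest, and 2 of the 65 peaks with a signal of at least 250. Over 100 kb from any start lay 21.6% of the highest quartile and 15.5% of the lowest, and these shares were not tested.

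Those 2 promoter peaks were at Dgkg and Socs1. The Dgkg peak (chr16:22656926-22657154, mm10) had 143.9 in replicate 1 and 160.8 in replicate 2, with its summit 245 bp from the start. The peak of Socs1, the gene of a feedback inhibitor of cytokine and interferon signalling (chr16:10785474-10785746), had 108.2 in replicate 1 and 150.7 in replicate 2, with its summit 90 bp from the start. The promoter of Socs1 is shown because its peak was the strongest with a summit inside a RefSeq promoter window. It is the RefSeq window of 250 bases before to 50 after the start on the minus strand, chr16:10785487-10785786 of GRCm38.p6 (mm10), and capitals mark overlapping matches to GAAANNGAAA, the interferon-stimulated response element (ISRE).
Socs1 promoter: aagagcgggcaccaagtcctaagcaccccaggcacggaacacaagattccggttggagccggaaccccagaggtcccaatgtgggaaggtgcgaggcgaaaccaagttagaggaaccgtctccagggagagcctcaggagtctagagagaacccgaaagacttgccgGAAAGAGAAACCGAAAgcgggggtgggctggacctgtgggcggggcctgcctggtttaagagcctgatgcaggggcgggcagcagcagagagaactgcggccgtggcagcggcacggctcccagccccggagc
The summit fell at position 161 of this window, just upstream of the capitals. Of the 32817 RefSeq promoter windows of the genome, 3.43% held an ISRE on either strand. The share was 3.62% of the 1076 windows on chromosome 16, and 3.86% (8 of 207) of those with an optimal summit. For the ETS-IRF element the shares were 2.72%, 3.35% and 2.90%, and for AP-1 they were 5.20%, 5.48% and 2.90%. These shares were not tested. By RefSeq window, the next strongest peak after that of Socs1 was at Gm32679 (241.5). Within 1 kb of the 1 start in use per protein-coding gene, the next after Dgkg and Socs1 were at Mrpl39 (176.7) and at Dtx3l (174.2). Rubcn (156.3), Pla1a (144.2) and Hcls1 (133.8) followed. A peak of 136.8 fell inside a RefSeq promoter window of Cd80, but 1418 bp from the start in use for that gene. Peaks at alternative starts are thus missed in this ranking and in the promoter shares.

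Sequences under the summits were set against flanking windows, 300 bp away, for the 1562 mm9 peaks of chromosome 16, by exact two-sided McNemar tests adjusted over 11 motifs. The peak was the unit of these tests. Peaks of 1 chromosome are not replicates and often lie close together, so these p-values do not measure spread between replicates. Each ETS-IRF, AP-1-IRF, ISRE, AP-1 and PU.1 motif searched was more frequent at summits than in flanks. The ETS-IRF composite element (EICE) lay within 50 bp of 7.23% of summits (6.05 to 8.63), against 1.09% of flanks (exact adjusted p = 3.5e-18). An AP-1 site lay there in 12.3% (10.8 to 14.0), against 2.18% (exact adjusted p = 7.9e-30). The ISRE stood in 6.15% of summit windows and 1.28% of flanks (exact adjusted p = 8.9e-13). The AP-1-IRF elements (AICE) were rarer: with adjoining half-sites (GAAATGANTCA) they were in 1.34% of summit windows and 0.128% of flanks, and with a gap of 4 bases in 0.896% and 0%. The ETS site of PU.1 (GAGGAAGT), which can overlap an EICE, was in 4.10% against 0.704% of flanks, the octamer of OCT factors (ATGCAAAT) in 2.11% against 0.320%, and a RUNX site (TGTGGTT) in 5.19% against 1.79%. All of these passed 0.05. As the control, the EICE letters read backwards (AAAGNNAAGG) were in 0.960% of summit windows and 1.02% of flanks (exact adjusted p = 1.0). A CTCF core was rare, in 7 summit windows (0.448%) and 3 flanks (0.192%, exact adjusted p = 0.38).

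The GATA site (AGATAA) was less frequent at summits than in flanks, 3.20% against 5.31% (exact adjusted p = 0.0057). Strong and weak peaks differed in their motif shares by more than the counting error for EICE and AP-1, with no test made. The highest quartile of these mm9 peaks by signal had an EICE at 13.0% (10.1 to 16.7) and the lowest at 4.86% (3.13 to 7.46). For AP-1 the shares were 20.5% (16.8 to 24.7) and 7.67% (5.43 to 10.7), and for at least 1 of the 4 IRF elements 23.5% and 9.46%. The PU.1 site was at 3.84% and 3.32%, within each other's interval. Over all 1562 peaks, 15.0% had at least 1 of the 4 IRF elements, so most summits of the chromosome lacked an exact match to these letters. The other autosomes had an EICE at 6.67% to 10.8% of summits with a median of 8.94%, and AP-1 at 11% to 17.4% with a median of 14.5%. Chromosome 16 ranked 17 of 19 for both, inside those ranges, and no difference between chromosomes was tested.

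**Figure D4:**
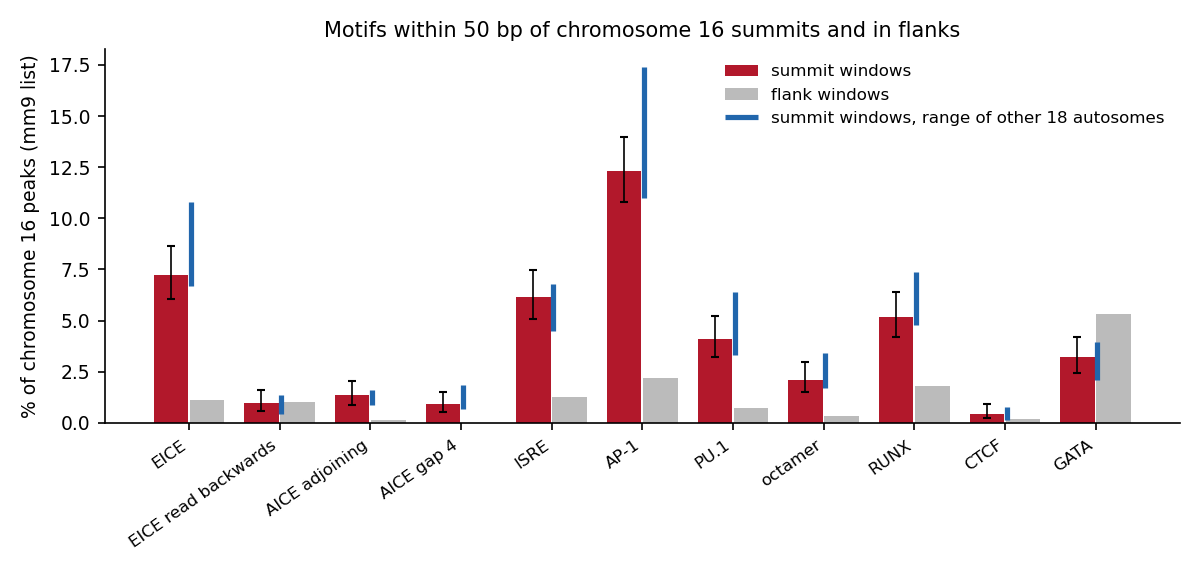
Red bars give the percent of the 1562 mm9 peaks of chromosome 16 with each motif within 50 bp of the summit (black bars, 95% Wilson intervals) and grey bars the percent in windows 300 bp away; blue lines span the other 18 autosomes at their summits. EICE, ISRE and AP-1 stand at 7.23%, 6.15% and 12.3% at summits, against 1.09%, 1.28% and 2.18% in flanks.

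Genes of chromosome 16 often had a peak close by. A summit lay within 10 kb of the start of 392 of 662 genes, 59.2%, against 50.3% of all protein-coding genes and 42.9% to 70.8% over the other autosomes. The lists below count summits in the gene or within 10 kb of it, which 480 of the 679 genes had (70.7%); the median over those genes of the strongest signal was 67.9. A summit with a signal of at least 100 was counted to 156 of the 679 (23.0%). Of the 34 list genes with such a summit, 22 had the strongest inside the gene and 12 outside it. Long genes catch more summits by their length alone. No test was made of any list.

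Among genes of costimulation and surface receptors, all 10 had a summit and 5 had one of at least 100 (23.0% of all genes of the chromosome did), with a median strongest signal of 97.6. Cd200 led with 401 and Tigit with 358. Btla, the gene of an inhibitory receptor on B and T cells, had 182, with 82.0 in replicate 1 and 99.8 in replicate 2, and Cd86 had 153, with 62.3 and 105. The T cell marker gene Cd96 had a strongest signal of 45.6. All 10 matched cytokine receptor and interferon response genes had a summit, and 8 had one of at least 100, with a median of 149. Socs1 reached 256. Ifnar2 reached 234 at a site 6054 bp outside the gene, with 100 in replicate 1 and 132 in replicate 2, and Ifngr2, the gene of a chain of the interferon gamma receptor, reached 198, with 93.3 and 104. Dtx3l and Parp9, a ubiquitin ligase and its partner in the interferon response, shared a peak of 174 close to both starts. Mx1 and Mx2 of this list had no match among the protein-coding genes used.

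Of 13 transcription factor genes of blood cells, 12 had a summit and 5 one of at least 100. Zbtb20 reached 470. Runx1 reached 271, with 124 in replicate 1 and 146 in replicate 2, Ets2 255 at a site 7804 bp outside the gene, with 118 and 138, and Erg 254, with 103 and 150. Ciita, the gene of the master coactivator of MHC class II genes, had 9 summits, 4 of at least 100, and a strongest signal of 206. Bcl6, the gene of the germinal centre repressor, had 6 summits in the gene or within 10 kb, the strongest at 49.2. Stronger peaks lay farther off with Bcl6 as the nearest start: 101.3 at 23384 bp, 175.9 at 162658 bp and 214.8 at 176846 bp. Nrip1, the gene of a nuclear receptor corepressor, had no summit in this window, its start being 444176 bp from the nearest. All 13 signalling genes had a summit and 7 reached 100. Hcls1, the gene of the cortactin relative of blood cells, led with 402, having 165 in replicate 1 and 236 in replicate 2. Litaf reached 210, Samsn1, the gene of a negative regulator of B-cell activation, 190 at a site 8588 bp outside the gene, and Gsk3b 169.

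Of the housekeeping genes, all 14 had a summit within 10 kb of their start; the median strongest signal was 51.7, and 2 reached 100. Both lay in a neighbouring gene: that counted to Son, 361, was in Donson, and that counted to Eif4g1, 231, was in Fam131a; Psmd2 had 97.5 and Prkdc 94.6. Of the 13 neuron genes 6 had a summit, although they are long, and 1 had one within 10 kb of its start. Lsamp, Gap43, Epha3, Cadm2, Robo1, Robo2 and Ncam2 had none. Grik1, the gene of a kainate receptor subunit, had 8 with a strongest signal of 278, Dscam 10 with 130, Epha6 2 with 102 and Kcnj6 7 with 89.5. Of the 29 genes of skin and epithelial barriers 3 had a summit, and all 24 keratin-associated protein genes (Krtap) had none. These 24 short genes form 1 cluster (chr16:88610709-89571183, mm10), so they do not count as separate sites. The bins that begin at 88 and 89 Mb, which hold the cluster, had 64 and 27 relaxed peaks, against 177 per Mb on the chromosome. The 3 genes with a summit were claudin genes: Cldn14 had 19 summits with a strongest signal of 129 at a site 6721 bp outside the gene, Cldn1 2 with 115 and Cldn16 2 with 57.6, while Cldn8 and Cldn17 had none. Transcription of these genes was not measured.

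**Figure D5:**
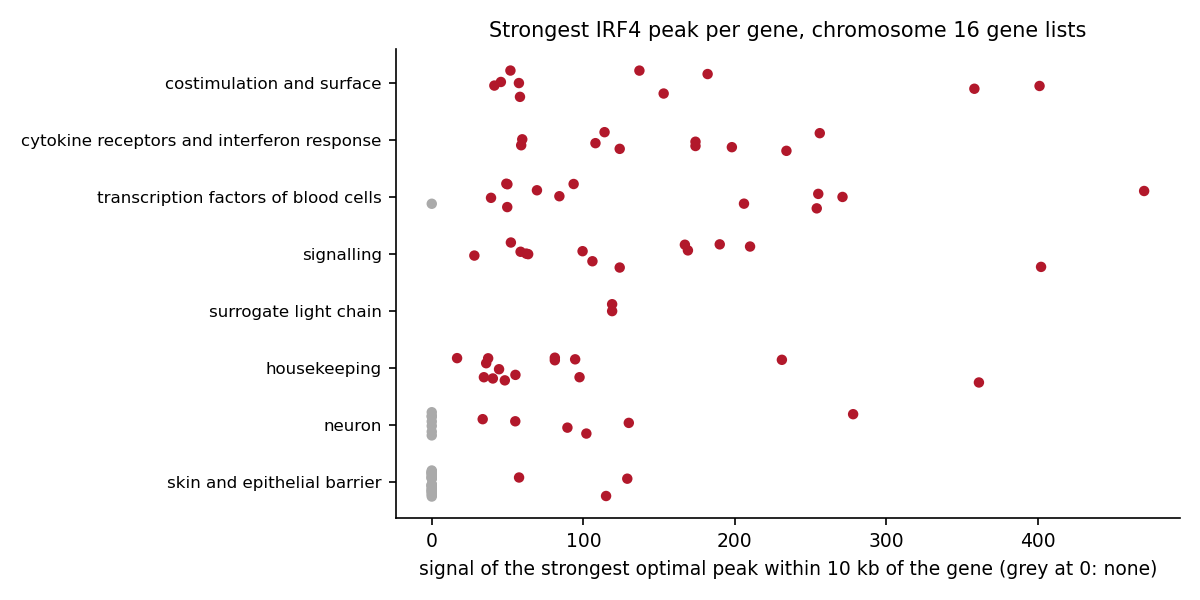
Each point is 1 gene of chromosome 16, placed by the signal of the strongest optimal peak in the gene or within 10 kb of it, with genes that have none in grey at 0; rows are the gene lists. The housekeeping genes lie mostly under 100, with Son (361, in Donson) and Eif4g1 (231, in Fam131a) above, and most neuron and skin genes lie at 0. Among the skin genes, the 24 Krtap genes form 1 cluster.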

How the data were processed

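IRF4 ChIP-seq of CH12.LX cells was analysed from peak lists in narrowPeak format. Per the text files deposited with the lists, the relaxed mm10 lists (replicate 1, replicate 2, pooled) entered IDR, which gave the optimal and conservative lists, and a separate list was made from both mm9 alignments. Neither the peak caller nor the aligner or read numbers are given in the sources used here. The deposited signal comes from the authors' caller. It was used to rank and describe peaks, and values of different lists were not set against each other except as pooled and replicate values of matched peaks. The pooled and replicate 2 lists have exactly 300000 lines each, replicate 1 has 215095.

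The members, gene lists, motifs and tests were chosen with earlier results of these data known. A summit was the start plus the offset, and lists were matched within 100 bp. Gene starts on mm10 were RefSeq's (GRCm38), 1 per gene, for 20923 of 21631 protein-coding genes, with the strand from GENCODE or the promoter table. A distance is to the nearest such start, so alternative starts of a gene are missed. Motifs had been planned for the optimal list and were read on the mm9 list, the build of the reference. Coordinates were not converted between builds. Named genes are the host and nearest-start genes of the 20 strongest peaks, up to 4 genes of each of the 5 densest bins, the 8 genes with most summits, the 4 strongest members of each list with those at 0, and genes of the 3 longest stretches without a summit. The Igl summit counts, the promoter peaks, Cd96, Bcl6, Ciita, Prkdc, Psmd2, Top3b and Fam131a were named after their values had been seen. The McNemar test and the motif search were tried on simulated windows, which were independent of each other, unlike the peaks here. Finding the nearest summit and leaving out close ones were checked on random positions. The other statistics were not simulated. Python 3.11.15 ran scipy 1.17.1, pandas 2.3.3, numpy 2.4.6 and, for figures, matplotlib 3.10.9.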

Additional observations from a re-analysis of the deposited data

How the results depend on the processing

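The limit for densities and median signals was the SD of the 2 single-replicate values, and for bin counts a fixed factor. Promoter alternatives had only to keep their sign, and motif alternatives their side of the threshold. Of 61 alternative values, 50 stayed within their limits, 11 moved and 0 reversed, and all 33 motif alternatives kept their side of the threshold. The difference between summits and flanks was 0 in 3 of these, for the EICE read backwards at 25 and 100 bp and for CTCF at 25 bp, motifs that did not pass in the main setting either. The ratio of optimal peak density on chromosome 16 to the median of the other autosomes, 1.42, was 1.55 on the mm9 list and 1.42 to 1.47 from single replicates. The relaxed ratio of 1.61 was 1.47 to 1.62 from single replicates. The ratio of median signals, 1.05, was 1.03 on the mm9 list, 1.06 to 1.07 from single replicates, 1.07 without summits within 340 bp of a stronger one, and 1.05 for summits over 10 kb from a start. The 30 dense bins became 65 with bins of 0.5 Mb, 10 with bins of 2 Mb and 31 to 32 from single replicates. Per 1000 relaxed peaks there were 0, under a bar that could hardly be met. These bin counts depend on bin size by construction. The promoter difference of -1.57 percentage points was -2.40 to -2.28 from single replicates. No comparison between groups, paired or not, was possible because the study has 1 group. Depth and input are unknown, so how density follows coverage was not tested.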
